A study of Mus musculus with 6 samples.

Results

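The livers of 2 mice fed high sitosterol or stigmasterol were set against the livers of 2 mice fed low sitosterol or ergosterol. The plant sterol livers came from a mouse fed high sitosterol and a mouse fed stigmasterol, sterols that carry an ethyl group on the side chain. The livers they were compared with came from a mouse fed low sitosterol and a mouse fed ergosterol, the main sterol of fungi, which carries a methyl group there. All 4 mice were labelled as males that lack Abcg8 in every tissue, were kept until weaning on a diet poor in sterols with 0.005% ezetimibe, and then ate their own diet for 12 weeks, with 1 mouse per diet. The low sitosterol mouse served as the control of the study and carries the same deletion, so no group here has the transporter. The labels give neither sterol doses nor the sterol content of the livers, so the sides are named after the diets. Sitosterol, a plant sterol, is named in the diets of both sides, so the sides differ in part by its level. The series holds 6 samples, the 4 livers and 2 adrenal glands of low and high sitosterol mice. Genes with 1 CPM (CPM is a count relative to the library's total) or more in at least 1 liver were kept, which left 13378 of the 33639 genes in the table. Of 296 genes in 14 stress lists, 292 were kept. In 128 of them both livers of a side lay beyond both livers of the other. By direction, 29.5% of the 292 stood higher in the plant sterol livers and 14.4% lower, beside 22% and 20.2% of all genes.

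Abcg8 and Abcg5 form a pump on hepatocytes and gut cells that sends plant sterols out into bile and gut contents. Its loss causes sitosterolemia, in which these sterols accumulate and hepatocytes and macrophages hold sterols that they use poorly. Cells answer such burdens with separate programmes. NF-kB, a family of transcription factors held back by inhibitor proteins, drives genes of inflammation. The integrated stress response slows translation and raises genes of amino acid supply through ATF4. The unfolded protein response raises chaperones of the endoplasmic reticulum (ER), NRF2 raises genes against oxidants, HSF1 raises heat shock proteins, and MTF1 raises metallothioneins, which bind zinc and copper.

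Values are scaled CPM, estimated counts divided by the library total times a TMM factor, a scaling that assumes that most genes do not differ. The TMM factor of the stigmasterol liver was 1.35 and those of the other livers were 0.83 to 0.95, so the direction of small differences depends on it. Scaled by library totals alone, the median of all genes stood 0.37 higher in the plant sterol livers on the log2 scale, against 0.00 with TMM. Counts are therefore given for TMM and for 4 scalings together (TMM, DESeq2 size factors, library totals and TPM, a share of transcripts corrected for length). A further limit lies in single libraries. The low sitosterol liver held genes of the adrenal cortex, with Star, which moves cholesterol into mitochondria for steroid synthesis, at 25.5 scaled CPM against 1.38 to 1.97 in the other livers. The stigmasterol liver had a lower summed level of 14 hepatocyte markers, 81878 scaled CPM against 144099 to 180465, and a higher one of 16 stellate cell and matrix markers, 1384 against 220.4 to 288. In whole tissue, fewer cells of a type and less RNA per cell cannot be told apart. The Y-linked genes Eif2s3y and Ddx3y had 2490 to 3881 counts together in the livers and 3 and 5 in the adrenal glands, so that the livers match the male label and the adrenal glands go against it.

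The targeted gene was looked at first. Abcg8 (GRCm38 chromosome 17, 84676302 to 84700333, plus strand) stood at 1.25 and 8.84 scaled CPM in the low sitosterol and ergosterol livers and at 10.6 and 11.6 in the high sitosterol and stigmasterol livers. Abcg5 stood at 11.7 and 72.8 and at 188 and 132 in the same livers. Both genes were highest in the plant sterol livers and lowest in the low sitosterol liver, with the ergosterol liver close below for Abcg8. The genes overlap on opposite strands, strands were not kept apart in the libraries and the labels do not give the deleted stretch, so these values do not check the knockout.

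Promoters of 5 stress genes are printed first. Mt1, Mt2, Tnfaip3 and Asns stood higher in both plant sterol livers. Dnajc3 stood lower under TMM and not under all 4 scalings. Each promoter carries the motif of its programme. They are printed as examples, and the shares over whole lists are given below. Each sequence runs from 250 bases before to 50 bases after a gene's start, 5′ to 3′ on the strand of the gene, from RefSeq (GRCm38.p6), with every motif in capitals. The metal response element that MTF1 binds was searched as TGCACNC or TGCGCNC on both strands. Mt1 (chr8:94178839-94179138, plus strand) held 3 and Mt2 (chr8:94172368-94172667, plus strand) held 4.

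Mt1: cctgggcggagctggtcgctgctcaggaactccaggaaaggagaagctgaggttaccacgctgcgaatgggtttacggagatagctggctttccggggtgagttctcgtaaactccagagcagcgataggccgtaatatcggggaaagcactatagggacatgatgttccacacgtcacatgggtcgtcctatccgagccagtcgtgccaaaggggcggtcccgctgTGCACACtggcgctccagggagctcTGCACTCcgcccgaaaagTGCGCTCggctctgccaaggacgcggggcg
Mt2: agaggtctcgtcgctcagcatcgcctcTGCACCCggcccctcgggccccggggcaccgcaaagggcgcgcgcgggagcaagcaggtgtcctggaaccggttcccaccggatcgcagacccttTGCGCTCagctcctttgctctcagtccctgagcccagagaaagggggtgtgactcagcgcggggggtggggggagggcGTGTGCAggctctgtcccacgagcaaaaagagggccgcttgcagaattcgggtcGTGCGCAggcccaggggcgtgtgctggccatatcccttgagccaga

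Of the 10 metal genes, 8 had a promoter in the RefSeq table and 6 of those held a metal response element, against 25.7% of all 32851 promoters. Tnfaip3 encodes A20, an enzyme that shuts down NF-kB signalling. Its promoter (chr10:19015361-19015660, minus strand) was searched with the NF-kB consensus on both strands and held 3 matches, of which a pair overlapped. Asns makes asparagine, and its promoter (chr6:7693160-7693459, minus strand) held 1 amino acid response element, searched as TGATGNAA on both strands. Dnajc3 restrains a kinase of the integrated stress response, and its promoter (chr14:118937682-118937981, plus strand) held 1 ER stress response element, CCAAT followed after 9 bases by CCACG.

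Tnfaip3: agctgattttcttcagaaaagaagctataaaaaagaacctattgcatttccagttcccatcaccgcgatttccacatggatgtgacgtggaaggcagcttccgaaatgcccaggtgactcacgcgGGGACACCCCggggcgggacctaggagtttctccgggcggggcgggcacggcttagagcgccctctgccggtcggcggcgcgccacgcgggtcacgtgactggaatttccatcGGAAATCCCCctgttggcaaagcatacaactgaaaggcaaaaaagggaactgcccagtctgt
Asns: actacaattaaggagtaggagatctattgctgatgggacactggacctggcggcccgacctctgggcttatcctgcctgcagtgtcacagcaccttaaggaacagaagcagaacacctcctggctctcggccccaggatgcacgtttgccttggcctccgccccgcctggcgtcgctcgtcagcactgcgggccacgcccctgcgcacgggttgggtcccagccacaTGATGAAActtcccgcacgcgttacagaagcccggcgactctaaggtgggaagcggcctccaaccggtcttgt
Dnajc3: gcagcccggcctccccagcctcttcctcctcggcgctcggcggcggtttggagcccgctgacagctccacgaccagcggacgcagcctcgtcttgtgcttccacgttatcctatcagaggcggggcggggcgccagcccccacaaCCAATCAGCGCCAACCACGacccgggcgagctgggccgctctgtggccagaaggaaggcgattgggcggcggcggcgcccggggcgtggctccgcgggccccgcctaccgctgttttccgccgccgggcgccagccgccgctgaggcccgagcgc

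The NF-kB consensus was in 10 of the 15 NF-kB genes with a promoter, against 8.46% of all promoters, and in 7 of the 10 with a promoter that lay apart between the sides. The amino acid response element was in 9 of 24 integrated stress genes, against 3.97% of all promoters, and in 5 of the 11 with a promoter that lay apart. The ER stress element was in 9 of 21 ER chaperone genes, against 0.119%, and in 2 of the 9 with a promoter that lay apart. An antioxidant response element, TGACNNNGC, was in 9 of 29 NRF2 genes against 12.4% of all promoters, and in 3 of the 10 with a promoter that lay apart. The metal response element was in 4 of 4 metal genes with a promoter that lay apart. A heat shock element, GAANNTTC, was in 12 of 20 heat shock genes against 7.86%, and none of those 20 lay apart. A match is a description of the sequence and does not show that a factor was bound.

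Across all genes, a single gene passed the test. edgeR's quasi-likelihood test with Benjamini-Hochberg adjustment called 1 of 13378 genes higher in the plant sterol livers (0.00747%) and 0 lower (0%). At an unadjusted p under 0.05 there were 937 higher and 392 lower genes, and DESeq2 called 377 higher and 107 lower. In this contrast each side joins different diets with 1 mouse each, so the spread in the test holds diet and mouse together. An exact permutation of 2 against 2 livers has 6 arrangements and cannot give a two-sided p below 0.333. Most of what follows is therefore a description of how far apart the sides lay, and only the gene that passed is said to have risen.

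The gene called was Cyp2a4 (GRCm38 chromosome 7, 26307169 to 26315088, plus strand), a steroid hydroxylase of the liver that is more active in females. It had 48 and 38 counts in the low sitosterol and ergosterol livers and 9167 and 10925 in the high sitosterol and stigmasterol livers, or 1.17 and 0.853 against 198 and 160.2 scaled CPM. Cyp2a4 thus rose, by 7.46 on the log2 scale (SE 0.38, edgeR adjusted p = 0.0449), and the nearest livers of the sides lay 137-fold apart (95% counting interval 103 to 185). The call was lost without the low sitosterol liver (adjusted p = 0.648), without the ergosterol liver (0.486) and with DESeq2 size factors (0.0524), while the log2 ratio stayed between 6.50 and 7.83 under all alternatives. Reads of its near-identical neighbour Cyp2a5 may be shared with it, and the sum of both genes was 284 and 347 against 648 and 517 scaled CPM.

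Both plant sterol livers lay above both others for 2939 genes (22%) and below them for 2707 (20.2%). They lay apart by 2-fold or more, measured between the nearest livers of the sides, for 486 genes upward (3.63%) and 96 downward (0.718%). With the direction the same under all 4 scalings, 2388 genes were higher (17.9%) and 482 lower (3.6%). By library totals alone 5034 genes were higher and 694 lower, so that the share of higher genes among those apart was 87.9% against 52.1% with TMM. With 1 liver left out, fewer livers have to lie apart, so that apart from the new scaling and limit of 1 CPM such counts can only stay or grow. Without the stigmasterol liver 4050 genes were higher and 4314 lower of 12268, without the high sitosterol liver 5552 and 4627 of 13310, and without the low sitosterol liver 4752 and 4534 of 13310. At the edge of the rule lay Pgk1, an enzyme of glycolysis just inside it, with 344 and 395 against 274 and 344 scaled CPM, and Taldo1, an enzyme of the pentose phosphate route just outside it, with 139 and 141 against 139 and 127.

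**Figure D1:**
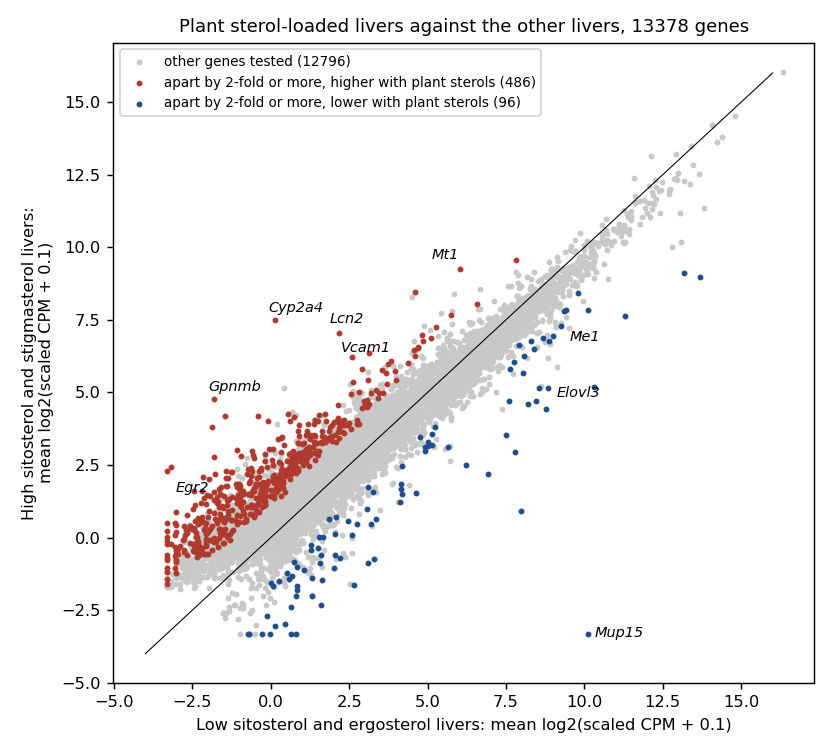
Each point is 1 of 13378 genes, with its mean log2(scaled CPM + 0.1) in the low sitosterol and ergosterol livers on the x axis and in the high sitosterol and stigmasterol livers on the y axis, and the line marks equal means. The 486 genes in red and 96 in blue had sides at least 2-fold apart; Cyp2a4 and Gpnmb lie far above the line and Mup15 far below it.

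Among the genes that stood highest above the other livers were several of lipid-laden macrophages. Gpnmb, a glycoprotein of macrophages that have taken up lipid, stood at 0.0977 and 0.314 scaled CPM in the low sitosterol and ergosterol livers and at 20.7 and 35.3 in the high sitosterol and stigmasterol livers. The nearest livers lay 65.8-fold apart (counting interval 39.0 to 121), with an edgeR log2 ratio of 7.05 (SE 0.62, adjusted p = 0.192). Mmp12, an elastase of macrophages, stood at 0.366 and 1.10 against 10.7 and 31.1 scaled CPM, and Trem2, a lipid receptor of macrophages, at 1.27 and 1.57 against 10.2 and 25.0. Lgals3, which encodes galectin-3, stood at 7.30 and 7.56 against 47.0 and 65.2, and Cd63, a membrane protein of lysosomes and exosomes, at 7.67 and 4.58 against 45.0 and 126. In all of these the stigmasterol liver was the highest and the sides did not overlap. Rragd, a GTPase that links lysosomes to mTORC1, stood at 1.54 and 1.21 against 11.9 and 29.7. Among the 15 genes with the widest gap were also Lcn2, Cib3, Mmd2, Arhgef2, Uap1l1, Tnfaip3 and Il1rn, the antagonist of the interleukin 1 receptor (2.27 and 2.90 against 12.3 and 21.4).

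The genes that stood lowest were led by major urinary proteins, lipid carriers that male livers secrete. Mup15 had 97573 and 23005 counts in the low sitosterol and ergosterol livers and 0 in both plant sterol livers, which is at least 7972-fold lower against a floor of 3 counts per library. The 21 Mup genes of the table summed to 87966 and 30207 scaled CPM against 14627 and 4113, a sum less exposed to the sharing of reads among near-identical copies. In all, 10 of the 15 lowest genes were Mup genes, and the sum was lowest in the stigmasterol liver and highest in the low sitosterol liver. Elovl3, which lengthens fatty acids and is more active in males, stood at 393 and 524 against 63.4 and 19.9 scaled CPM. Cyp2c37 stood at 158 and 207 against 28.8 and 4.59, Nxpe2 at 26.3 and 23.3 against 6.13 and 1.25 and Acpp, a phosphatase, at 16.3 and 18.2 against 5.10 and 0.953. Me1, the malic enzyme that supplies NADPH for lipid synthesis, had plant sterol livers closer to each other than the genes above, with 646 and 564 against 141 and 169 scaled CPM (3.33-fold, counting interval 3.26 to 3.41).

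Of the 292 stress genes kept, 86 stood higher in both plant sterol livers and 42 lower, or 29.5% and 14.4%, against 22% and 20.2% of all genes. Under all 4 scalings there were 75 higher and 14 lower, where 17.9% and 3.6% of all genes were. The lists and members were chosen with earlier results of these data known, so these shares describe them and are no test. None of the stress genes passed the edgeR test across all genes. At an unadjusted edgeR p under 0.05, 52 were higher and 8 lower, beside 937 and 392 of all 13378 genes. DESeq2 called 27 stress genes higher and 4 lower, beside 377 and 107 of all 13378 genes. Apart by 2-fold or more were 28 upward and 1 downward, beside 3.63% and 0.718% of all genes, and the median log2 difference of the lists joined was 0.12, against 0.00 for all genes. The programmes did not all stand on one side: members of some lists stood almost all on one side, and those of others were split or overlapped. Without the stigmasterol liver 134 stress genes were higher and 70 lower than both others, to be read beside the counts of all genes without that liver.

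**Figure D2:**
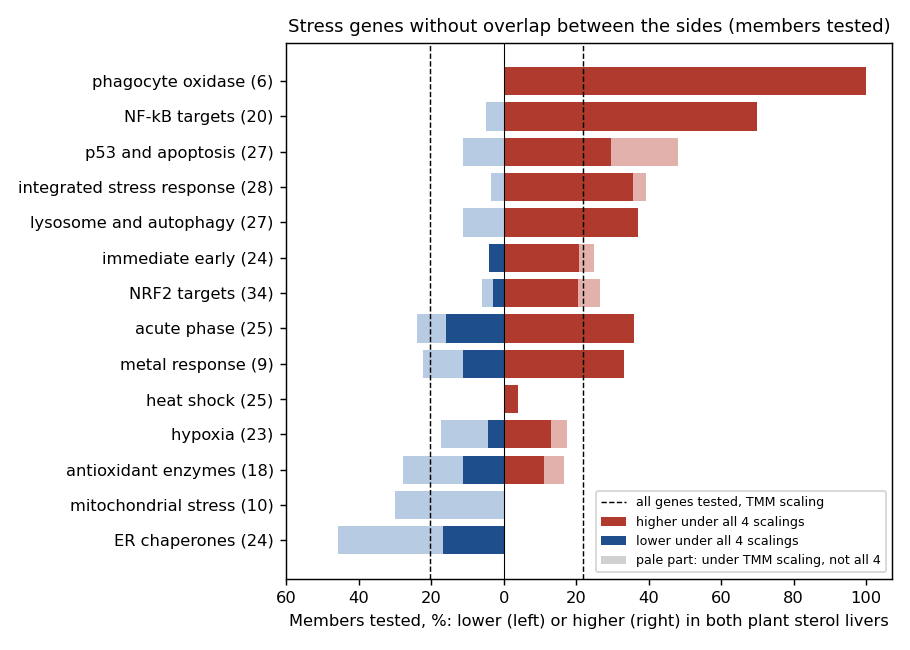
Bars give, for each of 14 stress lists (number of genes kept in brackets), the percentage of genes that lay higher (right) or lower (left) in both plant sterol livers; the dark part holds under all 4 scalings and the pale part under TMM but not all 4. Dashed lines mark 22% and 20.2%, the shares of all 13378 genes under TMM scaling; 6 of 6 phagocyte oxidase genes and 14 of 20 NF-kB genes stood higher, and 11 of 24 ER chaperone genes stood lower.

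Metal genes stood on both sides, with 3 higher and 2 lower of 9, beside 22% and 20.2% of all genes. Under all 4 scalings 3 and 1 were, beside 17.9% and 3.6% of all genes. The metallothioneins were on the higher side. Mt1, a metallothionein, stood at 122 scaled CPM in the low sitosterol liver, 34.3 in the ergosterol liver, 914 in the high sitosterol liver and 398 in the stigmasterol liver. Mt2, its neighbour on chromosome 8, stood at 70.4, 8.17, 509.9 and 247 in the same order. The high sitosterol liver was the highest and the ergosterol liver the lowest for both, and the sides did not overlap. The nearest livers lay 3.26-fold apart for Mt1 (counting interval 3.16 to 3.36) and 3.51-fold for Mt2 (3.37 to 3.65), with edgeR log2 ratios of 3.07 (SE 0.78, adjusted p = 0.448) and 3.27 (SE 1.05, adjusted p = 0.462). These are the promoters printed above with 3 and 4 metal response elements. The zinc importer Slc39a4 stood at 17.0 and 39.3 against 96.6 and 89.0 scaled CPM, higher in both plant sterol livers by 2.26-fold. The manganese exporter Slc30a10 stood lower, with 26.3 and 47.6 against 11.0 and 12.4, and so did the zinc importer Slc39a5, at 2.03 and 3.79 against 0.216 and 1.16, which did not hold under all 4 scalings. The remaining 4 of the 9 metal genes kept overlapped between the sides. In the adrenal glands Mt1 stood at 87.2 scaled CPM with low and 225 with high sitosterol, and Mt2 at 30.1 and 144.

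Most NF-kB genes stood higher. Of 20 kept, 14 were higher in both plant sterol livers, 1 was lower and 5 overlapped, with 14 higher and 0 lower under all 4 scalings. Of all genes 22% were higher and 20.2% lower, and 17.9% and 3.6% under all 4 scalings. The median log2 difference of the NF-kB genes was 1.39. Apart by 2-fold or more, 10 of them stood higher and 0 lower, beside 3.63% and 0.718% of all genes.

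Among the transcription factors, Relb stood at 1.81 and 2.13 scaled CPM in the low sitosterol and ergosterol livers and at 6.56 and 13.3 in the high sitosterol and stigmasterol livers, 3.08-fold apart at the nearest. Nfkb2, its partner, stood at 8.60 and 7.30 against 18.9 and 30.2, Nfkb1 at 15.4 and 19.2 against 21.2 and 27.6, and Rel at 3.10 and 3.01 against 5.83 and 5.02. All 4 were higher in both plant sterol livers. Of the inhibitors that NF-kB itself induces, Nfkbia stood at 34.1 and 34.1 against 48.3 and 49.8, Nfkbie at 1.98 and 1.28 against 4.15 and 7.80, and Tnfaip3, whose promoter is printed above, at 2.44 and 2.15 against 12.4 and 10.7. Tnfaip3 had the widest gap of the list, 4.38-fold (counting interval 3.55 to 5.46), with an edgeR log2 ratio of 2.33 (SE 0.30, adjusted p = 0.383).

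The targets that act outside the cell included adhesion molecules and chemokines. Vcam1, which holds leukocytes to the vessel wall, stood at 14.2 and 12.3 against 72.0 and 54.8 scaled CPM, with the nearest livers 3.85-fold apart (counting interval 3.53 to 4.21) and an edgeR log2 ratio of 2.26 (SE 0.26, adjusted p = 0.383). Icam1, another adhesion molecule, stood at 10.4 and 7.27 against 23.7 and 24.2. Ccl2, which draws monocytes, stood at 1.27 and 0.382 against 7.21 and 3.73, and Cxcl10, which draws T cells, at 2.64 and 1.95 against 8.31 and 6.86. The high sitosterol liver was the higher of the plant sterol livers for Vcam1 and Ccl2. Traf1 and Cd40, of the signalling of TNF family receptors, were low in every liver, with 0.342 and 0.247 against 1.10 and 2.89 for Traf1 and 0.537 and 0.539 against 1.47 and 1.91 for Cd40. Il1b, the cytokine interleukin 1 beta, was the member that stood lower, at 2.93 and 1.80 against 1.55 and 1.16, 1.16-fold at the nearest (counting interval 0.830 to 1.61) and not under all 4 scalings. Bcl3, a nuclear partner of NF-kB, overlapped with 67.2 in the low sitosterol liver and 12.4 in the ergosterol liver on either side of the plant sterol livers, at 46.8 and 24.0. In the adrenal glands Vcam1 stood at 33.6 with low and 102 with high sitosterol, and Ccl2 at 0.726 and 8.13.

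The phagocyte oxidase makes superoxide in macrophages and neutrophils, and all 6 of its genes stood higher in both plant sterol livers under all 4 scalings, with a median log2 difference of 1.55, where 17.9% of all genes stood higher. Of the membrane subunits, Cyba stood at 9.11 and 11.3 scaled CPM in the low sitosterol and ergosterol livers and at 29.2 and 39.2 in the high sitosterol and stigmasterol livers, and Cybb at 6.35 and 13.7 against 22.8 and 36.0. Of the cytosolic subunits, Ncf1 stood at 3.59 and 3.66 against 7.28 and 9.33 and Ncf4 at 1.22 and 1.21 against 4.25 and 3.39. Rac2, the GTPase of the complex, stood at 4.64 and 8.01 against 14.7 and 13.9. The gaps ran from 1.66-fold for Cybb to 2.77-fold for Ncf4.

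The summed level of macrophage markers was higher as well, and their part in the results was not tested. The 17 macrophage markers summed to 394 and 624 scaled CPM in the low sitosterol and ergosterol livers and to 1177 and 813 in the high sitosterol and stigmasterol livers. All 17 had counts in every liver. In both plant sterol livers 8 were higher and 2 lower, with 7 overlapping, beside 22% and 20.2% of all genes. Under all 4 scalings 7 and 2 were, beside 17.9% and 3.6% of all genes. Cd163 and Timd4, markers of resident Kupffer cells, were the lower ones. Clec4f and Vsig4, also of Kupffer cells, overlapped, and were highest in the high sitosterol and lowest in the stigmasterol liver. Cd163 stood at 8.21 and 11.6 against 0.972 and 0.235 and Timd4 at 2.98 and 6.87 against 1.14 and 0.205. Lyz2, a lysozyme of macrophages and neutrophils, stood at 51.4 and 56.0 against 157 and 263. Of 14 markers of lipid-laden macrophages 10 were higher and 0 lower, also under all 4 scalings, although their sum, 953 and 533 against 922 and 1866, overlapped. Fabp5, which other cells express too, made up 755 of the sum in the low sitosterol liver. Neutrophil markers were low in every liver, with sums of 10.8 and 3.28 against 13.4 and 13.6 and 4 of them at 0 counts in the ergosterol liver. The sums of T and NK cell markers, 6.30 and 6.91 against 8.57 and 13.1, were low as well.

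Genes of the integrated stress response stood higher in part. Of 28 kept, 11 were higher and 1 lower, with 10 and 0 under all 4 scalings. Of all genes 22% and 20.2% were, and 17.9% and 3.6% under all 4. The median log2 difference of the list was 0.57. Without the stigmasterol liver it was 0.13, and 0.69 to 0.99 with another liver left out. Without the stigmasterol liver 10 members stood higher and 5 lower, beside 4050 and 4314 of 12268 genes. Slc7a11, the cystine importer, stood at 0.269 and 0.180 scaled CPM in the low sitosterol and ergosterol livers and at 0.669 and 5.62 in the high sitosterol and stigmasterol livers. Asns stood at 2.42 and 0.202 against 3.61 and 12.9, and Ddit4, an inhibitor of mTORC1, at 8.57 and 15.2 against 27.6 and 42.2. The stigmasterol liver was the highest for these, most of all for Slc7a11. The transcription factor Ddit3, also called CHOP, stood at 9.09 and 6.94 against 24.4 and 13.2. Atf3, another factor of the response, stood at 10.1 and 10.7 against 19.3 and 16.6, and for both the high sitosterol liver was the highest. Nupr1, a stress-induced chromatin protein, stood at 6.94 and 2.38 against 12.8 and 17.0. Other members with well-known roles overlapped between the sides: Atf4, the factor that drives the list, at 85.1 and 58.9 against 77.4 and 76.0, Trib3, its feedback inhibitor, at 22.5 and 9.72 against 16.3 and 37.8, and the secreted hormones Fgf21, at 4.84 and 11.4 against 5.31 and 17.8, and Gdf15, at 39.1 and 59.1 against 23.6 and 44.6. Chac1, which degrades glutathione, was the member that stood lower, at 13.4 and 9.47 against 5.05 and 7.22. Ddit3 shares bases with Mars on the other strand, so its counts may include reads of that gene.

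ER chaperone genes stood on the lower side. Of 24 kept, 11 stood lower in both plant sterol livers and 0 higher, against 20.2% and 22% of all genes. The median log2 difference was -0.60 with TMM and -0.23 by library totals, where all genes stood at 0.37, and 4 were lower under all 4 scalings, where 3.6% of all genes were. Those 4 were Dnajb9, Herpud1, Hyou1 and Pdia4. Dnajb9, a co-chaperone, stood at 73.7 and 68.0 scaled CPM in the low sitosterol and ergosterol livers and at 35.5 and 31.6 in the high sitosterol and stigmasterol livers, 1.92-fold apart. Herpud1, of the degradation of misfolded proteins, stood at 595 and 480.5 against 383 and 219, Hyou1, a chaperone, at 262 and 123 against 102 and 77.6, and Pdia4, a disulfide isomerase, at 226 and 166 against 134 and 103. The stigmasterol liver was the lowest for all 4. Dnajc3, whose promoter is printed above, stood at 212 and 173 against 150.3 and 119.9, lower under TMM and not under all 4 scalings. Hspa5, or BiP, the central chaperone of the ER, overlapped: 1329.7 in the low sitosterol liver, 593 in the ergosterol liver, 636 in the high sitosterol liver and 429 in the stigmasterol liver. The low sitosterol liver thus stood above the other 3 for it. The lower hepatocyte marker sum of the stigmasterol liver moves with this, and its part was not tested.

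Heat shock genes split the plant sterol livers instead of joining them. Hspa1a stood at 9.04 scaled CPM in the low sitosterol liver, 4.11 in the ergosterol liver, 449 in the high sitosterol liver and 2.35 in the stigmasterol liver. Its near-identical copy Hspa1b stood at 74.6, 46.4, 793 and 7.26, and the co-chaperone Dnajb1 at 47.9, 25.0, 251 and 15.4 in the same order. In each the high sitosterol liver was far above all others and the stigmasterol liver was the lowest. Of the 25 genes, 1 stood higher and 0 lower, also under all 4 scalings. Of all genes 22% and 20.2% did, and 17.9% and 3.6% under all 4. The higher member was Cryab, a small heat shock protein, at 4.25 and 3.37 against 5.14 and 12.3, and the others overlapped. Without the stigmasterol liver 22 of 25 stood higher in the high sitosterol liver than in both others. Without the high sitosterol liver 1 stood higher and 20 lower in the stigmasterol liver. Each of those counts rests on 1 mouse, and of all genes 4050 of 12268 stood higher without the stigmasterol liver and 4627 of 13310 lower without the high sitosterol liver. The general chaperones Hspa8, at 2585 and 1439 against 2929 and 866, and Hsp90aa1, at 329 and 162 against 585 and 171, overlapped as well. In the adrenal glands Hspa1a stood at 22.3 with low and 15.6 with high sitosterol, so no level near that of the high sitosterol liver was measured in either gland.

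**Figure D3:**
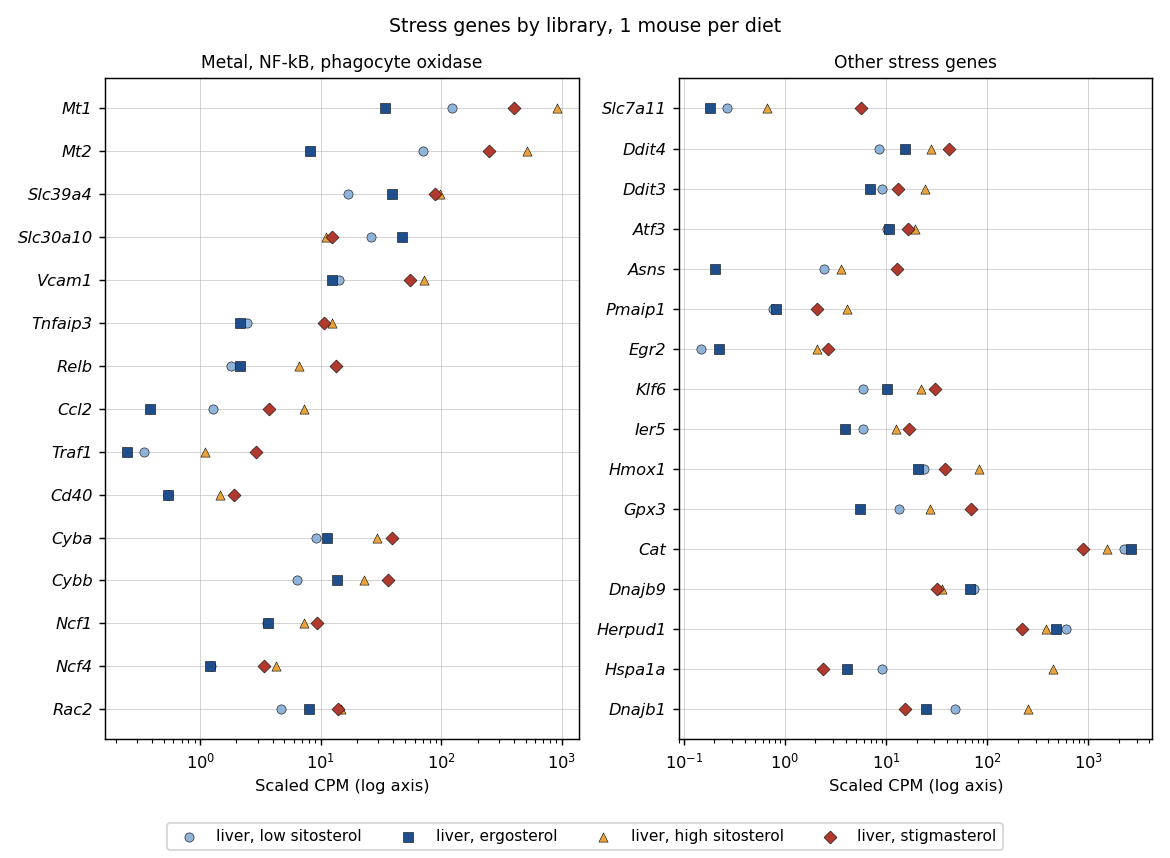
Scaled CPM (x axis, log scale) of 31 stress genes (y axis) in each of the 4 livers, 1 mouse each, with blue symbols for low sitosterol and ergosterol, orange for high sitosterol and red for stigmasterol. The warm and blue symbols do not overlap for Mt1, Vcam1 or Cybb, while for Hspa1a the high sitosterol liver at 449 stands alone and the stigmasterol liver at 2.35 is the lowest.

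Of 34 NRF2 targets, 9 stood higher and 2 lower, beside 22% and 20.2% of all genes. Under all 4 scalings 7 and 1 did, beside 17.9% and 3.6% of all genes. The median log2 difference of the list was 0.07. Hmox1, which breaks down haem, stood at 23.5 and 20.7 scaled CPM in the low sitosterol and ergosterol livers and at 82.5 and 37.7 in the high sitosterol and stigmasterol livers. Of the glutathione transferases, Gsta1 stood at 0.318 and 4.20 against 8.40 and 151 and Gstm3 at 69.2 and 44.2 against 111 and 459, and the carbonyl reductase Cbr3 stood at 0.513 and 0.314 against 1.08 and 9.62. Hmox1 was highest in the high sitosterol liver, and the other 3 were far higher in the stigmasterol liver than in any other. G6pdx, which supplies NADPH, was lower, at 49.6 and 15.8 against 9.22 and 9.28. The classic targets Gclc, for glutathione synthesis, and Txnrd1, thioredoxin reductase, overlapped. Gclc stood at 103 and 229 against 97.4 and 141 and Txnrd1 at 82.8 and 98.0 against 67.4 and 98.8. Nqo1, a quinone reductase, was higher in both plant sterol livers by a narrow gap, at 2.37 and 4.15 against 4.43 and 11.1, and not under all 4 scalings. Srxn1, which restores oxidised peroxiredoxins, stood at 39.8 and 45.1 against 55.6 and 115 in the livers and at 879 with low and 4021 with high sitosterol in the adrenal glands.

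Antioxidant enzymes outside that list were split. Of 18 kept, 3 stood higher and 5 lower, beside 22% and 20.2% of all genes. Under all 4 scalings 2 and 2 did, beside 17.9% and 3.6% of all genes. Gpx3, the secreted glutathione peroxidase, stood at 13.4 and 5.45 scaled CPM against 27.0 and 69.5, and Sod3, the extracellular superoxide dismutase, at 41.4 and 46.8 against 64.0 and 64.0. Both enzymes that act outside the cell were thus on the higher side. Catalase (Cat), of peroxisomes, stood at 2219 and 2628 against 1520.3 and 874, and Sod1, the cytosolic dismutase, at 1114 and 974 against 856 and 549, both lower in both plant sterol livers and lowest in the stigmasterol liver.

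Of 27 genes of p53 and apoptosis, 13 stood higher and 3 lower under TMM, and 8 and 0 under all 4 scalings. Of all genes 22% and 20.2% did, and 17.9% and 3.6% under all 4. The median log2 difference of the list was 0.36. Without the stigmasterol liver it was 0.095, and 0.21 to 0.47 with another liver left out. Without the stigmasterol liver 13 members stood higher and 4 lower, beside 4050 and 4314 of 12268 genes. Pmaip1, or NOXA, which promotes apoptosis, stood at 0.757 and 0.808 scaled CPM in the low sitosterol and ergosterol livers and at 4.06 and 2.05 in the high sitosterol and stigmasterol livers. Plk2, a kinase, stood at 2.32 and 6.31 against 11.9 and 12.5, Phlda3, an inhibitor of AKT, at 2.39 and 2.31 against 3.39 and 14.7, and Bax, which opens mitochondria, at 25.1 and 20.7 against 32.9 and 38.1. The most used readouts of p53 overlapped between the sides. Cdkn1a, or p21, stood at 10.9 and 36.0 against 20.6 and 86.0, Mdm2 at 15.4 and 22.3 against 19.0 and 21.8 and Ccng1 at 34.5 and 39.3 against 29.3 and 35.9. In the same livers 17 of 21 cell cycle genes stood higher and 0 lower (16 and 0 under all 4 scalings), against the same shares, with a median log2 difference of 2.63. Mki67, a marker of dividing cells, stood at 0.342 and 1.89 against 7.95 and 32.5, and Birc5, or survivin, at 0.757 and 0.965 against 3.45 and 19.1, both highest in the stigmasterol liver. Gtse1, counted here among the p53 genes and active in dividing cells, stood higher as well, at 0.0977 and 0.718 against 1.04 and 6.56.

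Immediate early genes, which answer signals within minutes, did not stand on one side as a list. Of 24 kept, 6 were higher and 1 lower, or 5 and 1 under all 4 scalings, beside 22% and 20.2% of all genes and 17.9% and 3.6%. Without the low sitosterol liver, 10 stood above and 12 below the ergosterol liver, beside 4752 and 4534 of 13310 genes. Egr2 stood at 0.147 and 0.224 scaled CPM against 2.05 and 2.64, with the nearest livers 9.14-fold apart (counting interval 4.76 to 19.7), on 6 and 10 against 95 and 180 counts. Klf6 stood at 5.91 and 10.2 against 22.2 and 30.0, and Ier5 at 5.91 and 3.95 against 12.4 and 16.9. Fos overlapped, with 4.50 in the low sitosterol, 29.6 in the ergosterol, 9.52 in the high sitosterol and 6.35 in the stigmasterol liver. The same held for Jun, at 21.9 and 99.2 against 73.8 and 51.7, Myc, at 2.93 and 35.0 against 8.96 and 33.5, and Egr1, at 53.8 and 184 against 35.6 and 95.2. In these 4 the ergosterol liver was the highest. Socs3, the feedback inhibitor of STAT3 signalling, stood lower in both plant sterol livers, at 20.4 and 36.5 against 14.2 and 9.53.

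Acute phase genes, which hepatocytes raise in inflammation, stood on both sides. Of 25 kept, 9 were higher and 6 lower, with 9 and 4 under all 4 scalings, beside 22% and 20.2% of all genes and 17.9% and 3.6%, and a median log2 difference of 0.18. Lcn2, an iron carrier of innate defence, had the widest gap, at 6.89 and 2.81 scaled CPM in the low sitosterol and ergosterol livers and 99.2 and 172 in the high sitosterol and stigmasterol livers, 14.4-fold apart at the nearest (counting interval 12.8 to 16.3), with an edgeR log2 ratio of 4.80 (SE 0.59, adjusted p = 0.383). Of the serum amyloid genes, Saa1 stood at 58.0 and 81.8 against 154 and 125 and Saa2 at 20.2 and 28.1 against 86.0 and 90.0. Orm2, an acid glycoprotein, stood at 13.9 and 17.0 against 55.8 and 49.7. Hpx, the haem carrier, stood at 4799 and 4121 against 10553 and 7777. The plant sterol livers were close to each other for Saa2 and Orm2. The lower members under all 4 scalings were the fibrinogen chains Fga, at 4668 and 4899 against 3330.5 and 2437, and Fgg, at 5077 and 4066 against 3682 and 2339.9, together with Crp and Serpina3m. Hamp, the iron hormone hepcidin, stood at 1394 and 585 against 574 and 548, so that it counts as lower by a gap of 1.02-fold while the low sitosterol liver alone stood well apart.

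Lysosomal genes stood higher in part, and the widest gaps were in genes of macrophages and osteoclasts. Of 27 kept, 10 were higher and 3 lower, with 10 and 0 under all 4 scalings. The shares of all genes were 22% and 20.2%, and 17.9% and 3.6% under all 4. Ctsk, a collagen-cleaving cathepsin, stood at 0.171 and 0.314 scaled CPM against 1.14 and 8.80, Atp6v0d2, a subunit of the proton pump, at 1.07 and 1.998 against 7.86 and 7.08, and Ctss, the cathepsin of antigen-presenting cells, at 24.3 and 34.5 against 79.3 and 149.9. Ctsk and Atp6v0d2 are also among the lipid-laden macrophage markers used here. Hexa, a hexosaminidase subunit, stood at 37.1 and 55.8 against 88.4 and 95.9. The general lysosomal enzymes differed less: Ctsd stood at 487 and 482 against 576 and 617 and Ctsl at 963 and 613 against 1104 and 997. The autophagy receptor Sqstm1 overlapped, at 444 and 417 against 425 and 614. Npc1, which exports sterols from lysosomes, stood lower in both plant sterol livers, at 122 and 113 against 98.1 and 67.8, and not under all 4 scalings. Its partner Npc2 stood higher, at 86.1 and 92.8 against 123 and 116.

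Few hypoxia and mitochondrial stress genes lay apart. Of 23 hypoxia genes 4 stood higher and 4 lower, beside 22% and 20.2% of all genes. Under all 4 scalings 3 and 1 did, beside 17.9% and 3.6% of all genes. Hk2, a hexokinase, stood at 0.757 and 1.10 scaled CPM against 2.16 and 3.23. Pdk1, which holds pyruvate back from mitochondria, stood at 76.5 and 99.998 against 42.8 and 20.4. Of 10 mitochondrial stress genes 0 stood higher and 3 lower by TMM, and none did so under all 4 scalings. The widest gap among them was 1.14-fold, for Dnaja3, a chaperone, at 103 and 94.6 against 83.1 and 79.6.

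Many genes of sterol and lipid synthesis in hepatocytes stood lower in the same livers. Of 20 enzymes of cholesterol synthesis, 15 were lower and 0 higher, with 12 lower under all 4 scalings, where 20.2% and 3.6% of all genes were lower, and a median log2 difference of -0.92. Idi1, an isomerase of the isoprenoid steps, stood at 75.2 and 58.2 scaled CPM in the low sitosterol and ergosterol livers and at 33.5 and 25.1 in the high sitosterol and stigmasterol livers. Pmvk, of the mevalonate steps, stood at 43.2 and 55.4 against 18.1 and 22.7, and Hsd17b7, of the late steps, at 26.4 and 27.2 against 10.04 and 12.0, 2.19-fold apart at the nearest. Sqle, squalene epoxidase, overlapped between the sides, at 40.9 and 14.0 against 20.3 and 7.35. Of 8 genes of the SREBP2 feedback loop 4 were lower, 2 of them under all 4 scalings, beside 20.2% and 3.6% of all genes. Stard4, a sterol carrier, was lower, at 110.5 and 62.4 against 47.9 and 21.5.

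Targets of LXR, the receptor for oxidised and some plant sterols, stood on both sides under TMM, with 4 higher and 5 lower of 15, beside 22% and 20.2% of all genes. Under all 4 scalings 4 were higher and 0 lower, beside 17.9% and 3.6% of all genes. Of the higher ones, the exporter Abcg1 stood at 4.03 and 6.73 scaled CPM against 12.3 and 18.3. The lipase Lpl stood at 25.4 and 129 against 257 and 440.0. The others were Abcg5 and the targeted gene Abcg8, given above. These genes overlap on opposite strands, which were not kept apart, so reads of one may be counted for the other. Abca1, the other cholesterol exporter, stood lower in both plant sterol livers, at 101 and 110.1 against 86.4 and 99.4, and not under all 4 scalings. Srebf1, which drives fatty acid synthesis, overlapped, at 219 and 355 against 399 and 237. Of 18 fatty acid synthesis genes 11 stood lower and 0 higher, against 20.2% and 22% of all genes, and 5 were lower under all 4 scalings, against 3.6%. Among the lower ones were Acly, which supplies acetyl-CoA, at 276 and 405 against 86.4 and 94.8, Acacb, an acetyl-CoA carboxylase, at 164 and 242 against 78.0 and 40.6, and Pnpla3, a lipase of lipid droplets, at 19.8 and 15.8 against 5.92 and 1.55. Of 22 PPAR alpha targets 9 stood lower and 0 higher under TMM, against 20.2% and 22% of all genes. Under all 4 scalings 2 were lower, among them Fabp1, a fatty acid carrier, where 3.6% of all genes were. Of 19 bile acid genes 13 stood lower and 1 higher, with 9 and 1 under all 4 scalings. Of all genes 20.2% stood lower and 22% higher, and 3.6% and 17.9% under all 4. The lower ones included Cyp8b1, the hydroxylase of cholic acid synthesis, at 343 and 627 against 159 and 73.1, and the exporter Abcb11, at 458 and 531 against 261 and 196. The higher one was Abcc4, an exporter of the blood side, at 1.05 and 1.17 against 1.42 and 9.33.

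Many genes more active in male liver stood lower, while the count of genes more active in female liver depended on the limit of 1 CPM. Of 19 genes more active in males, 13 stood lower and 0 higher, with 13 lower under all 4 scalings, against 20.2% and 3.6% of all genes, and a median log2 difference of -1.81. Of 18 genes more active in females, 10 were kept, and 7 of those stood higher and 0 lower (6 and 0 under all 4 scalings). Of all genes 22% stood higher, and 17.9% under all 4. The limit of 1 CPM in any liver favours that count. With 1 CPM asked in 2 livers, 3 stood higher and 0 lower. Beside Cyp2a4 the higher ones included Sult1e1, the estrogen sulfotransferase, at 0.0489 and 0.404 scaled CPM against 31.0 and 6.31. Cyp4a12a, a fatty acid hydroxylase of males, stood at 481 and 551 against 195 and 78.2, and Cyp7b1, an oxysterol hydroxylase, at 357 and 127 against 72.7 and 33.1. Without the stigmasterol liver 3 female-biased genes stood higher and 13 male-biased genes lower, with the limit of 1 CPM applied to the remaining livers. Of all 12268 genes then kept, 4050 stood higher and 4314 lower.

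**Figure D4:**
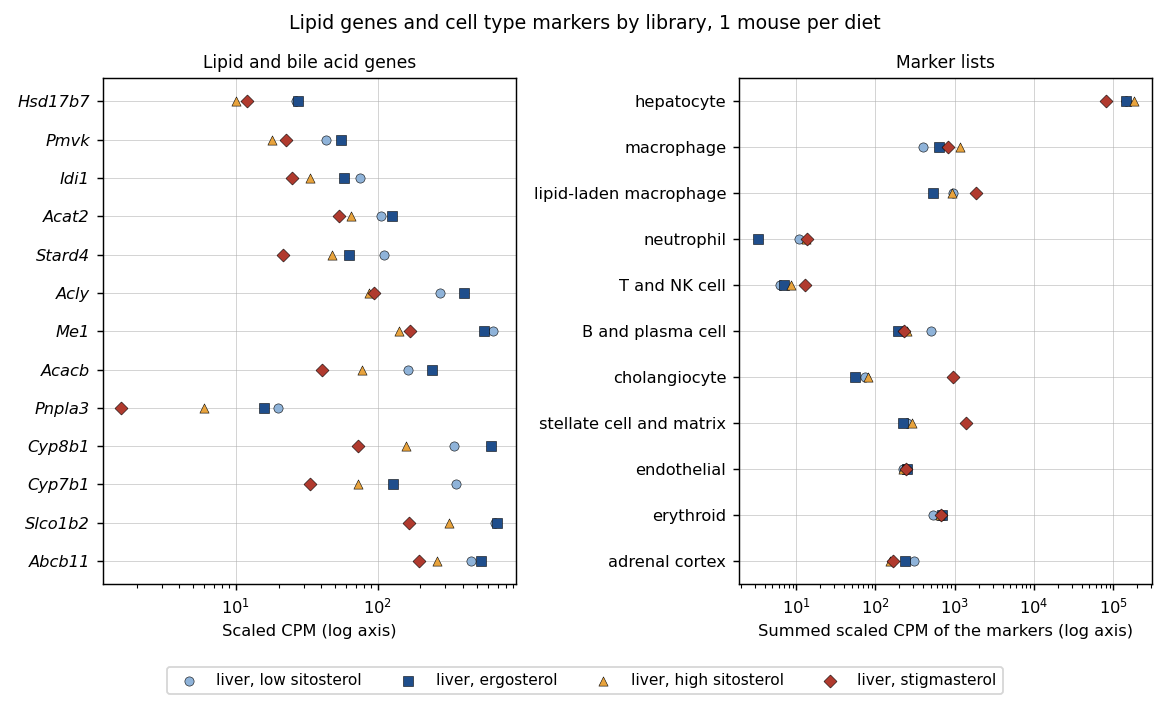
Scaled CPM (x axes, log scale) of 13 lipid and bile acid genes (left) and summed scaled CPM of 11 lists of cell type markers (right) in each of the 4 livers, 1 mouse each. The 13 genes plotted all stood lower in both plant sterol livers. Lipid genes that stood higher, such as Lpl and Abcg1, or overlapped, such as Sqle and Srebf1, are not plotted. The cholangiocyte sum, 947 in the stigmasterol liver against 55.7 to 81.3, and the stellate cell and matrix sum set the stigmasterol liver apart from all others.

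Markers of other cells set the stigmasterol liver apart from its partner. The 10 cholangiocyte markers summed to 73.9 and 55.7 scaled CPM in the low sitosterol and ergosterol livers, 81.3 in the high sitosterol liver and 947 in the stigmasterol liver. Spp1, osteopontin, which is also a macrophage gene, made up 825 of that sum, and the keratin Krt19, at 1.91 and 1.12 against 1.12 and 11.4, was also highest in the stigmasterol liver. The collagen gene Col1a1 stood at 10.1 and 7.21 against 14.9 and 179.6. Col3a1, another collagen gene, stood at 23.4 and 23.8 against 34.8 and 342. Both were higher in both plant sterol livers, and the high sitosterol liver lay much nearer to the low sitosterol and ergosterol livers than to the stigmasterol liver. Of the 16 stellate cell and matrix markers 11 stood higher and 1 lower, or 10 and 0 under all 4 scalings, beside 22% and 20.2% of all genes and 17.9% and 3.6%. Of the 14 hepatocyte markers 1 stood higher and 6 lower, or 0 and 3 under all 4 scalings. Cyp2e1, of the cells around the central vein, stood at 8544 and 8261 against 5037 and 1048. G6pc, the phosphatase that releases glucose, stood at 501 and 462 against 42.4 and 240.2, lowest in the high sitosterol liver. Endothelial markers summed to 223 and 248 against 222 and 243, with the sides overlapping. Erythroid markers summed to 531 and 688 against 648 and 666 and overlapped too.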

How the data were processed

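RNA sequencing of 4 livers and 2 adrenal glands from Abcg8-deficient mice was used, with 1 mouse per group. Per the labels' protocols, the TruSeq v2 kit, which is unstranded, was used for the libraries. The deposited values are estimated counts and TPM, each in a table by gene symbol, as the authors made them. Build mm10 and the tools kallisto 0.43.1, HISAT2 2.0.5 and Trimmomatic 0.33 are listed in the submitters' processing notes, and no annotation is. Estimated counts were rounded, since 54.3% to 68.6% of the genes with counts had values that were not whole. A row that names no gene (0% of counts) was left out. Totals were 47789184 to 50573364 counts per liver and 41546507 and 48058374 per adrenal gland, so a floor of 3 counts was 0.0440 to 0.0733 scaled CPM in the livers.

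Counts were scaled within each tissue by TMM factors. High sitosterol and stigmasterol livers were tested against low sitosterol and ergosterol livers with edgeR 4.0.16 (R 4.3.3; glmQLFit, glmQLFTest), adjusted over all 13378 genes at a threshold of 0.05. The labels give 1 sample per diet, and the spread between samples in this test may be of any source. A gap printed as a fold is the ratio of scaled CPM between the nearest livers of the sides, without a prior count. Its exact conditional binomial (Clopper-Pearson) 95% interval covers counting error only. Whether sides lay apart, the limit of 2-fold and the ranking of gaps used log2 scaled CPM with a prior count of 0.5. DESeq2 1.42.0 and limma 3.58.1 (on log2(TPM + 0.1) and log2(TPM + 1)) served as alternatives, with other scalings, filters and left-out livers. The fit was checked on simulated counts. Named genes were Abcg8, Abcg5, the 15 with the widest gap in each direction at 10 scaled CPM or more in both livers of the higher side, up to 6 members per stress list and 4 per other list, and fixed stress genes; other members are given for their role and were chosen with their values known. The lists and members were chosen with earlier results of these data known. Gene positions are from GENCODE M21 (GRCm38). Reads of near-identical genes (Hspa1a with Hspa1b; the Cyp2a, Cyp4a, Cyp2c and Mup families) and of genes that overlap on either strand, such as Mt2, Vcam1, Cyp2a4, G6pdx, Ncf1 and Hexa here, cannot be told apart with certainty. Some genes are not reported here.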

Additional observations from a re-analysis of the deposited data

How the results depend on the processing

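No paired analysis was possible, since each diet had 1 mouse and the labels match no liver of a side to a liver of the other. Genes called by edgeR numbered 1 higher and 0 lower. With DESeq2 size factors 0 were called higher, the DESeq2 test called 377 higher and 107 lower, limma on log2(TPM + 0.1) called 96 and 29, and the test without a low-count filter called 389 and 111. Scaling by library totals called 1 higher and 1 lower. Leaving out 1 liver at a time gave 0 to 576 higher and 0 to 100 lower calls, the most without the high sitosterol liver and 0 without the low sitosterol or the ergosterol liver; the lone liver of a side is then assumed to vary like the pair left on the other.

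Sides at least 2-fold apart (486 higher, 96 lower) became 171 and 38 with log2(TPM + 1), 461 and 55 with log2(TPM + 0.1) and 1073 and 404 without the filter. They became 542 to 2157 higher and 200 to 543 lower with 1 liver left out, which by construction leaves fewer livers to lie apart. Genes without overlap (2939 higher, 2707 lower) became 5034 and 694 by library totals, 4587 and 550 with TPM at either pseudocount, 2388 and 482 under all 4 scalings at once (an alternative chosen after seeing the data), and 4050 to 5552 and 4249 to 4627 with 1 liver left out. Filters of 1 CPM in 2 livers, a prior count of 2 and leaving out 148 genes typical of adrenal gland moved no such count by 1.5 times.

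Medians of stress, lipid and cell type lists changed sign as follows, and the cause was not tested beyond the shift of all genes given for each scaling. By library totals, log2(TPM + 0.1) and log2(TPM + 1) in turn, metal genes went from -0.08 to 0.28, 0.28 and 0.16, antioxidant enzymes from -0.11 to 0.25, 0.29 and 0.29, mitochondrial stress genes from -0.12 to 0.24, 0.28 and 0.27, and LXR targets from -0.19 to 0.18, 0.20 and 0.18. PPAR alpha targets went from -0.41 to 0.0863 with TPM at either pseudocount. The median of hepatocyte markers went from -0.43 to 0.008 with TPM and to 0.14 without the stigmasterol liver, and that of heat shock genes from 0.02 to -0.0069 with DESeq2 size factors. Cholangiocyte markers went from 2.07 to -0.08 without the stigmasterol liver, and endothelial markers from 0.02 to -0.14 without the low sitosterol and -0.27 without the stigmasterol liver. Adrenal cortex markers went from -1.96 to 0.75 without the low sitosterol liver, where 2 pancreas markers also changed sign (to 0.12), and 4 adipocyte markers ran from -0.05 to 2.16 without the high sitosterol liver. All genes shifted by 0.37 by library totals and 0.39 with TPM. With 1 liver left out the median ran from -0.62 (without high sitosterol) to 0.61 (without stigmasterol) for heat shock genes, 0.02 with all livers. It ran from -0.14 to 0.12 for metal genes, from -0.24 to 0.061 for antioxidant enzymes, from -0.16 to 0.39 for immediate early genes (0.25 with all livers; lowest without low sitosterol), from -0.049 to 0.44 for acute phase genes (0.18 with all livers; lowest without high sitosterol), from -0.27 to 0.13 for LXR targets and from -0.86 to 0.0035 for PPAR alpha targets.

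With 1 mouse per diet, differences between the plant sterol and the other livers cannot be told apart from differences between mice. The adrenal genes in the low sitosterol liver and the matrix and cholangiocyte genes in the stigmasterol liver touch the side each belongs to.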

Other observations

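Immune genes whose values are not given above were looked at by liver. The antibody light chain Igkc stood at 7.52 and 5.05 scaled CPM in the low sitosterol and ergosterol livers and at 14.2 and 44.7 in the high sitosterol and stigmasterol livers, and Jchain, which joins antibody units in plasma cells, at 1.25 and 1.03 against 2.40 and 16.7. Cx3cr1, a receptor of monocytes and macrophages, stood at 0.562 and 0.561 against 1.40 and 16.2, and Ccr2, the receptor for Ccl2, at 0.928 and 1.12 against 1.75 and 10.9. In Igkc, Jchain, Cx3cr1 and Ccr2 the sides did not overlap and the stigmasterol liver was far the highest. Igkc and Jchain were the 2 of 6 B and plasma cell markers kept that stood higher. None stood lower and 4 overlapped, beside 22% higher and 20.2% lower of all genes. The 10 markers listed summed to 500 and 191 against 250 and 226 scaled CPM, and the sides overlapped. Cx3cr1 and Ccr2 are among the macrophage markers counted above. Of genes of Kupffer cells on the same list, Clec4f stood at 79.5 and 131 against 218 and 24.1 and Vsig4 at 15.9 and 24.3 against 39.2 and 6.98, both highest in the high sitosterol liver and lowest in the stigmasterol liver, so that the sides overlapped. Sox9, a factor of cholangiocytes and of hepatocytes that take on their features, stood at 3.52 and 3.75 against 11.1 and 17.4, higher in both plant sterol livers.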
